A study of Mus musculus with 6 samples.

Results

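The circadian clock genes are followed here in the uterus of control mice and of mice with a conditional deletion of *Foxo1*. Their 10 members were chosen by symbol from a table of 23420 genes, and all 10 had a row in it. They are the activators *Arntl*, *Clock* and *Npas2*, the repressors *Per1*, *Per2*, *Per3*, *Cry1*, *Cry2* and *Nr1d1*, and the output factor *Dbp*. RNA-seq was performed on whole uteri of C57BL/6J females aged 8 weeks that had been mated with vasectomized males and were at pseudopregnancy day (PPD) 4.5, when the uterus is prepared for implantation but holds no embryo. The control genotype was *Foxo1f/f*, in which both *Foxo1* alleles are floxed and intact. The knockout genotype, *Foxo1d/d*, was PgrCre/+ *Foxo1f/f*, so that 1 *Pgr* allele carried Cre and the second coding exon of *Foxo1* was removed in cells that express or had expressed the progesterone receptor. Both genotypes therefore carried the floxed alleles, and only the knockouts carried Cre. Such cells include the uterine epithelium, stroma and muscle, and also cells of the ovary and pituitary, which set the hormones that reach the uterus. Each genotype was represented by 3 libraries, and each library was made from a pool of 2 females. The values available are the authors' mean raw count of each gene in each genotype. The mean counts add up to 26125014 per library in control and 27257963 in knockout uteri. Values of single libraries were not analysed here, so the spread between pools is not known here and no test was run. No difference given below was checked here over replicates. For *Foxo1* and *Pgr*, the paper reports qRT-PCR on independent samples.

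The clock is a feedback loop of transcription that runs over about a day in most cells. BMAL1, the product of *Arntl*, pairs with CLOCK or with its close relative NPAS2, and the pair binds E-box elements and activates *Per*, *Cry*, *Nr1d1* and *Dbp*. PER and CRY proteins enter the nucleus and block the pair, REV-ERBα from *Nr1d1* represses *Arntl* through ROR elements, and DBP carries the rhythm to D-box elements of other genes. The loop also runs in the uterus, and female mice lacking *Arntl* are known to have poor fertility with impaired implantation. Because most of these transcripts rise and fall over the day, their level in a sample depends on the hour of dissection. The hour for these pools is not given in the sources used here. Whether the genotypes were dissected at the same hour is likewise not given.

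Sequences from before an annotated start of *Npas2* and of *Clock* are shown because the results turn on this pair, whose products fill the same place beside BMAL1. They are from RefSeq promoter windows of build GRCm38, each running from 250 bases before to 50 bases after an annotated start. Windows were given for 9 of the 10 members, with 13 windows in all, and *Per2* had none listed. For *Npas2*, the 190 bases at chr1:39194022-39194211 on the plus strand are the first part of the window. In GENCODE M21 the gene begins earlier, at 39193731, so this stretch lies within it, outside its exons, and ends where an exon begins. The bases from there to the RefSeq start are not printed. For *Clock*, the 250 bases at chr5:76304793-76305042 on the minus strand are those of the window farthest upstream of 3, and 167 of them lie in an exon of the antisense transcript *Gm7467*.
*Npas2*: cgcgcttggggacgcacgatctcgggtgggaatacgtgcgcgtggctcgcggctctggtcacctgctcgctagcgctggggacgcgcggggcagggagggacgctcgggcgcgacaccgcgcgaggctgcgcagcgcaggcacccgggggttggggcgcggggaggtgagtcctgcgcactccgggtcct
*Clock*: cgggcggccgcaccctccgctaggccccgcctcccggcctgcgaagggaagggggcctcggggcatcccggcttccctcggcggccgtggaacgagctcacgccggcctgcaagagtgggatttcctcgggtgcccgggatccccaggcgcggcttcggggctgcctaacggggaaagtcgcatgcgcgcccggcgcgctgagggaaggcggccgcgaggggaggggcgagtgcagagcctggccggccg
G and C made up 75.3% of the *Npas2* stretch and 76.4% of the *Clock* stretch, with 29 and 33 CG dinucleotides. All windows were searched on both strands for 5 motifs: the E-box CACGTG, the D-box TTANGTAA, the ROR element core TAGGTCA, the FOXO element GTAAACA and the cAMP element TGACGTCA. None of the 5 was in any window of *Npas2*, *Clock*, *Cry2*, *Nr1d1* or *Dbp*. The other 4 members with a window held 6 matches, which are shown because they are the places in these windows where the clock's own elements, or that of FOXO proteins, are spelled out. Capitals mark the motif, and each line reads 5′ to 3′ on the strand of the gene.
*Per1*, E-box, chr11:69098771-69098800, plus strand: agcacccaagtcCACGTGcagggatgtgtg
*Cry1*, E-box, chr10:85185097-85185126, minus strand: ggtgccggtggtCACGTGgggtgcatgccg
*Cry1*, FOXO element, chr10:85185132-85185160, minus strand: gagccagtgtaGTAAACAcacttcagaaa
*Per3*, D-box, chr4:151044852-151044881, minus strand: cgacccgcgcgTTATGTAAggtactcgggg
*Per3*, D-box, chr4:151044805-151044834, minus strand: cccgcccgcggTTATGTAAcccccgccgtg
*Arntl*, ROR element core, chr7:113207530-113207558, plus strand: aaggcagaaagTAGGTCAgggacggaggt
Among all 32851 windows of the mouse, an E-box was in 7.15%, a D-box in 2.32%, a ROR element core in 2.61%, a FOXO element in 3.65% and a cAMP element in 1.79%. A match describes the letters only, and a window without a match says nothing of whether a factor binds the gene.

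*Foxo1* was the check of the genotypes. It averaged 3941 counts in control and 1456 counts in knockout uteri, and after division by the total of each genotype the knockout level was 35.4% of control. On the log2 scale this ratio, taken as knockout over control throughout, was -1.50, with a counting interval of -1.55 to -1.45. These ratios were taken after adding 1 to each mean count. The counting interval is the Wilson 95% interval from the counts summed over the 3 libraries of each genotype, and it covers counting error only, not the differences between mice, pools or hours. Reads from cells without Cre and from the exons left in the deleted allele still count toward *Foxo1*. The uterine genes *Pgr*, *Esr1*, *Hoxa10* and *Hoxa11* were all abundant, with *Hoxa10* the most abundant at 546 CPM in control and 506 CPM in knockout uteri, where CPM are counts scaled to a total of 1000000 per genotype. Of these 4, *Pgr*, the progesterone receptor, had the highest log2 ratio, 0.20, and *Hoxa10* the lowest, -0.11.

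Levels of different genes were compared as CPM per kb of exon, with the exon length taken as all exons of the gene in GENCODE M21. In *Foxo1f/f* uteri *Nr1d1* had the highest level of the 10 genes, 26.6, and *Per1* came next with 19.6. *Cry2*, *Npas2* and *Per2* followed at 10.2, 10.05 and 9.78, and the counting intervals of these neighbours overlapped. *Per3* was at 9.25 and *Clock* at 8.46, each outside the interval of the gene above it. *Dbp* and *Cry1*, at 6.69 and 6.56, could not be ordered by their intervals. *Arntl* was lowest at 3.64.

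In *Foxo1d/d* uteri the first 2 places and the last were held by the same genes, with levels of 24.4 for *Nr1d1*, 19.7 for *Per1* and 3.80 for *Arntl*. *Per2* and *Cry2* lay at 9.68 and 9.67 with overlapping intervals. *Dbp*, *Clock* and *Per3* formed the next group, at 8.49, 8.31 and 8.20, and *Cry1* was at 5.90. *Npas2* had moved from place 4 to place 9, at a level of 4.42. The order was the same for any scaling of a genotype, since a scaling moves all its genes alike, but it depends on the exon lengths used. A gene whose annotated exons are partly unused in the uterus is placed too low, and which exons are used was not measured. The annotated exons add up to 13727 bp for *Clock* and 4791 bp for *Npas2*.

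**Figure D1:**
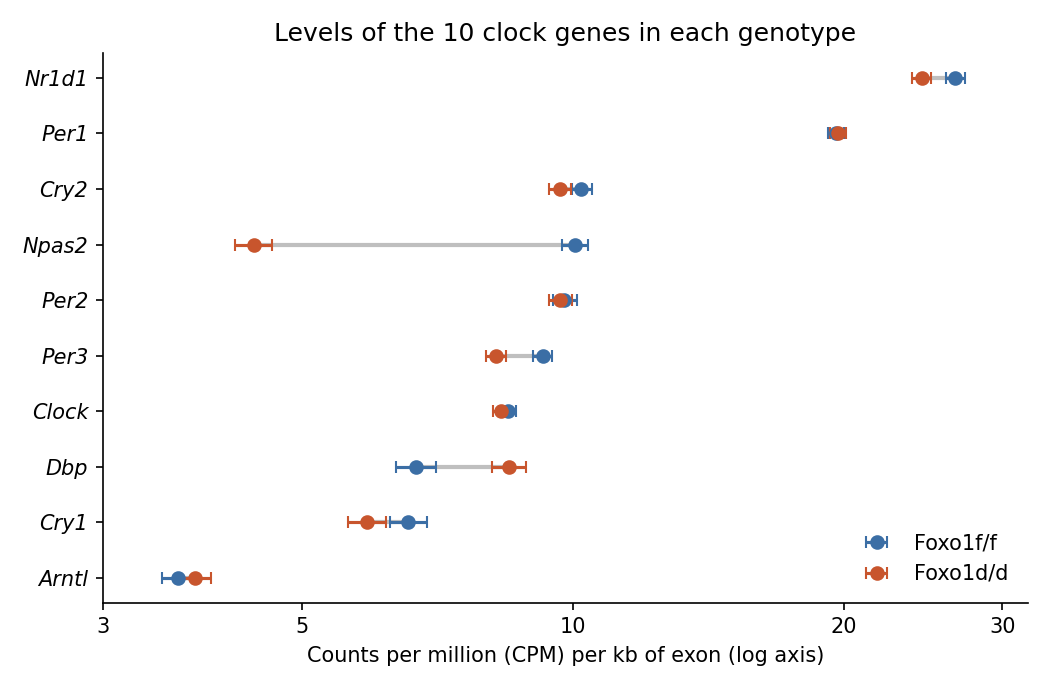
Level of each of the 10 clock genes in *Foxo1f/f* and *Foxo1d/d* uteri, as CPM per kb of exon on a log axis. Points are genotype means and bars their exact Poisson 95% counting intervals, which do not include the spread between pools. *Npas2* is at 10.05 in control and 4.42 in knockout uteri, while the other 9 genes have their 2 points closer together.

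Across the 10 genes, *Npas2* stood apart and the rest of the loop differed little between the genotypes. A gene was counted as higher or lower when its ratio passed 1.5-fold. By this rule 1 of the 10 members was lower in *Foxo1d/d*, against 3.51% of the 15696 genes whose counts averaged 10 or more across the genotypes. None of the 10 was higher, against 5.43% of the same genes. A count of 1 in 10 is not read here as a difference of the list from that background. The median log2 ratio of the 10 members was -0.05, and that of all 15696 genes was 0.02. The median size of the ratio, whatever its sign, was 0.10 for the members and 0.14 for all genes. The 9 members other than *Npas2* lay between -0.17 and 0.34 on the log2 scale.

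Among the activators, *Npas2* was lower in the knockout while *Arntl* and *Clock* were not. *Npas2* (Entrez gene 18143), the PAS domain protein that can stand in for CLOCK, lies on chromosome 1 at 39193731 to 39363236 of GRCm38, on the plus strand. Control uteri averaged 1257 counts and knockout uteri 577, which is 48.1 and 21.2 CPM. The knockout level was 44.0% of control, with a counting interval of 41.5% to 46.5%, and the log2 ratio was -1.18, from -1.27 to -1.10. This is 2.27-fold lower, and of the 15696 genes only 152, or 0.968%, had a lower ratio. *Clock*, on chromosome 5, encodes the usual partner of BMAL1. It averaged 3032 counts in control and 3110 in knockout uteri, with a log2 ratio of -0.02 and an interval of -0.07 to 0.02. *Arntl*, which encodes BMAL1 itself, averaged 716 counts in control and 780 in knockout uteri, a log2 ratio of 0.06 with an interval of -0.02 to 0.15. Neither *Clock* nor *Arntl* differed beyond counting error.

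A ratio of 2 genes within a genotype needs no scaling between genotypes. The pairs given here and below were not fixed before the values were seen. Per length, *Npas2* stood at 119% of *Clock* in control and at 53.1% in knockout uteri. The log2 change of this ratio was -1.16, with a counting interval of -1.25 to -1.07. Against *Arntl*, the gene of their shared partner, *Npas2* went from 276% to 116%. *Arntl* against *Clock* was 43.1% in control and 45.8% in knockout uteri, and the interval of its log2 change, -0.01 to 0.18, held 0. The transcripts for the partners of BMAL1 were thus nearly even by this measure in control uteri and mostly *Clock* in knockout uteri, under the exon lengths given above.

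The repressors were at nearly the same level in both genotypes, and none of the 6 passed 1.5-fold. *Per1* and *Per2*, period genes that also respond acutely to light or hormones, averaged 2886 and 1496 counts in control uteri and 3023 and 1545 in knockout uteri. Their log2 ratios were 0.01 and -0.01, and both intervals held 0. The sign for *Per1* turned under centring on the median gene and under upper quartile scaling, with a lowest value of -0.02. *Per3*, a period gene that is not needed for the rhythm itself, averaged 2321 counts in control and 2149 in knockout uteri, a log2 ratio of -0.17, from -0.22 to -0.12. Of all genes 42.3% differed by more than *Per3* did, in one direction or the other.

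*Cry1* and *Cry2* encode the cryptochromes, the main blockers of the activator pair. *Cry1* averaged 573 counts in control and 537 in knockout uteri, with a log2 ratio of -0.15, from -0.25 to -0.06. *Cry2* averaged 1691 and 1665 counts, and its log2 ratio was -0.08, from -0.14 to -0.03. The ratio of *Cry1* to *Cry2* per length was 64.1% in control and 61.1% in knockout uteri. *Nr1d1*, the repressor of *Arntl*, averaged 2140 and 2048 counts, and its log2 ratio was -0.12, from -0.18 to -0.07. These intervals leave out 0, but differences of this size are common in the table, where 46.8% of genes differed by more than *Cry1*, 67.6% by more than *Cry2* and 54.7% by more than *Nr1d1*.

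*Dbp*, the output factor, was the member with the highest ratio. This PAR bZIP factor (Entrez gene 13170), driven by the activator pair and among the transcripts with the steepest daily swing, averaged 523 counts in control and 692 in knockout uteri. The log2 ratio was 0.34, with an interval of 0.25 to 0.44, or 1.27-fold. It did not pass 1.5-fold, and 19.8% of all genes differed by more. With the bounds drawn closer, at 125% and 80% of control, 1 member was above them, *Dbp*, and 1 below, *Npas2*, as were 12.5% and 9.00% of all genes. Against *Arntl*, which peaks at the opposite time of day from *Dbp* in most tissues, *Dbp* was at 184% per length in control and 223% in knockout uteri, a log2 change of 0.28 with an interval of 0.15 to 0.41. *Nr1d1*, another target of the activators, moved the other way against *Arntl*, from 731% to 642%. *Per2* against *Arntl* was 268% and 254%, and the interval of its change held 0. By log2 ratio *Dbp* was above 0, while 5 of the 6 repressors were below 0 and *Per1* was at 0.01. Of all 15696 genes, 8649 were above 0 and 7047 below, and these signs are not read as a difference from that background. The intervals of *Per1* and *Per2* held 0, and the ratio of *Dbp* is uncertain because of the overlap described next.

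Reads can be shared between some members and their neighbours. The kit is not stated to keep the strand, so reads from genes that overlap on opposite strands cannot be told apart. *Dbp* shares 539 bp with *Sphk2*, which is 18.0% of its exon length, and its ratio is uncertain for this reason. *Sphk2* averaged 1515 and 1607 counts, and its log2 ratio of 0.02 was below that of *Dbp*. *Nr1d1* shares 263 bp, or 8.55%, with *Thra*, which averaged 2879 and 2764 counts and had the same log2 ratio as *Nr1d1*, -0.12. *Cry2* shares 295 bp, or 4.67%, with the noncoding *D930015M05Rik*, counted 84.0 and 75.7 times on average. *Arntl* shares 33 bp with *Gm45355*. *Npas2*, *Clock*, *Per1*, *Per2*, *Per3* and *Cry1* had no exon overlap with another annotated gene on either strand. No stretch of 50 bases of the *Npas2* transcripts occurred in transcripts of another gene.

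**Figure D2:**
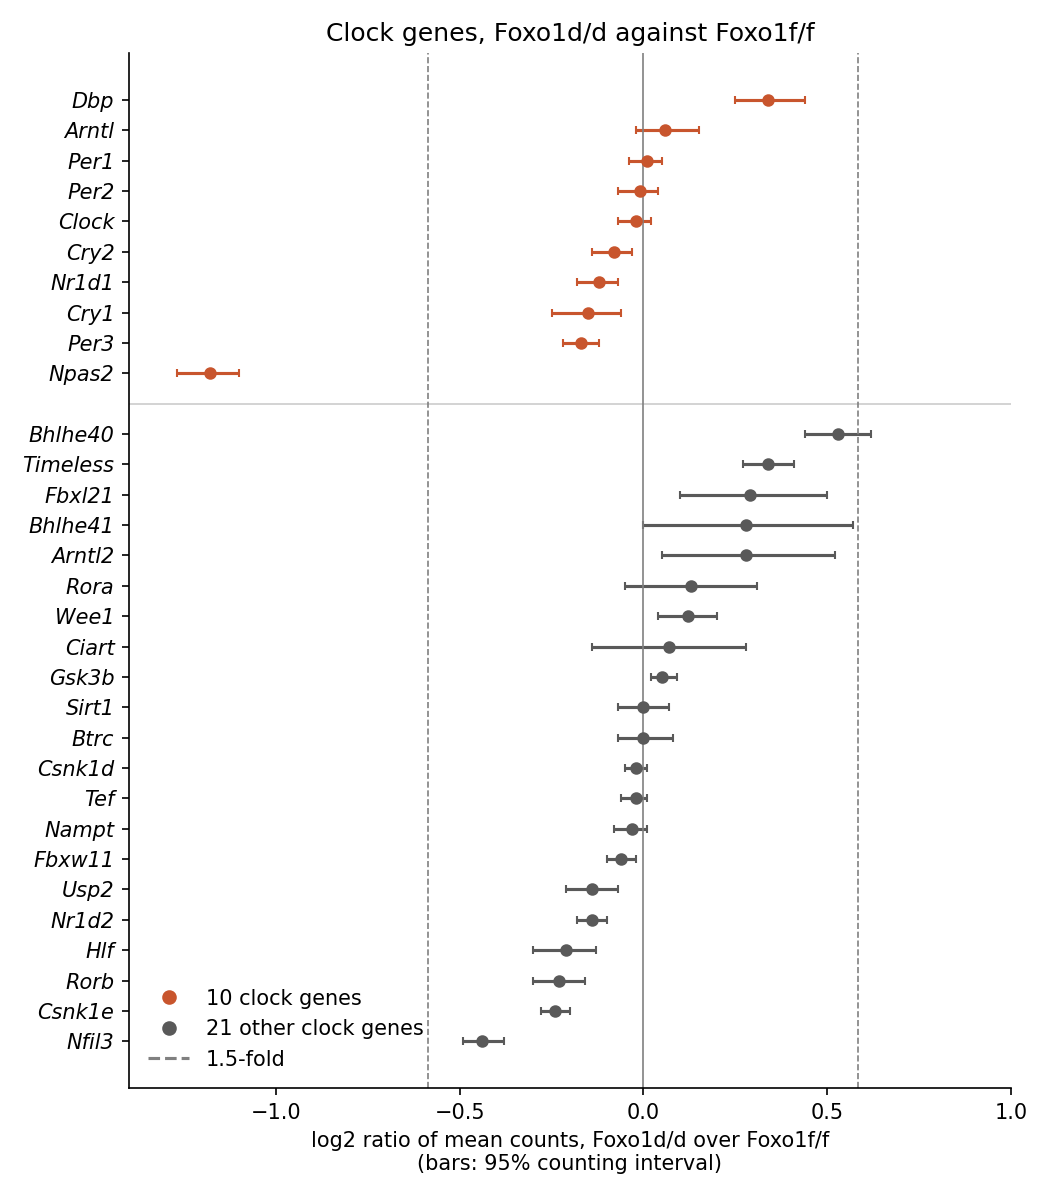
Knockout over control uteri, as the log2 ratio of mean counts, for the 10 clock genes and for 21 other clock genes, each group in order of its ratio. Bars are 95% counting intervals and dashed lines mark 1.5-fold. *Npas2*, at -1.18, is the only gene drawn whose point is past a dashed line, and *Bhlhe40*, at 0.53, is closest to it among the others.

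Of the rest of the clock network, 21 genes are given here. None of these was higher and none lower by 1.5-fold, against 5.43% and 3.51% of all genes. Their median log2 ratio was 0.00, and 10 were above and 11 below 0, where 8649 of the 15696 genes were above and 7047 below. Above 125% of control were 2 of them and below 80% was 1, against 12.5% and 9.00% of all genes, which is not read as a difference from that background. The 11 genes listed as transcription factors, with *Timeless* counted among them, held all 3 of these. *Bhlhe40*, a repressor of E-box genes also known as DEC1, averaged 583 counts in control and 878 in knockout uteri, a log2 ratio of 0.53, from 0.44 to 0.62. *Timeless*, whose product acts mainly at DNA replication forks in mammals, had a log2 ratio of 0.34. *Nfil3*, which encodes E4BP4, the repressor that competes with DBP for D-boxes, averaged 2215 counts in control and 1709 in knockout uteri, a log2 ratio of -0.44, from -0.49 to -0.38. Per length, *Nfil3* was at 626% of *Dbp* in control and 365% in knockout uteri, a log2 change of -0.78 with an interval of -0.89 to -0.67. *Dbp* has the highest ratio of the D-box activators, and that ratio is uncertain because of its overlap with *Sphk2*.

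The other D-box activators did not share the direction of *Dbp*. *Tef*, the most abundant by count of the 11 genes listed as transcription factors, had a log2 ratio of -0.02, and *Hlf* one of -0.21. Among the factors that act on ROR elements, *Nr1d2*, the relative of *Nr1d1*, was at -0.14, *Rora* at 0.13 and *Rorb* at -0.23, and the interval for *Rora* held 0. *Arntl2*, a second gene for a BMAL protein, averaged only 86.0 and 109 counts, with a log2 ratio of 0.28. Its interval of 0.05 to 0.52 is wide because the counts are low. *Bhlhe41*, the relative of *Bhlhe40*, was at 0.28 on mean counts of 59.0 and 75.0, and the repressor *Ciart*, listed under an older name, was at 0.07 with an interval that held 0. Promoter windows were given for 17 of the 21 genes. *Ciart* held 3 E-boxes, *Sirt1*, a regulator described below, held 2, *Bhlhe41* held 1 and each of the 2 windows of *Tef* held 1. *Timeless* held 1 D-box, as did 1 of the 2 windows of *Rorb*. *Nfil3* held 1 ROR element core and *Hlf* 1 cAMP element, and there was no other match.

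The 8 kinases, ligases and other regulators of clock proteins lay between -0.24 and 0.29, with a median of -0.01. *Csnk1d* and *Csnk1e*, the casein kinases that mark PER proteins for decay, were at -0.02 and -0.24, and *Csnk1d* was the most abundant gene of this list by count. The ligase subunits *Btrc* and *Fbxw11*, which carry PER proteins to degradation, were at 0.00 and -0.06, and *Fbxl21* was at 0.29 on mean counts of 118 and 152. *Gsk3b* was at 0.05, the deubiquitinase gene *Usp2* at -0.14 and the deacetylase gene *Sirt1* at 0.00. Of the clock-controlled enzymes, *Nampt*, the rate-limiting enzyme of NAD salvage, was at -0.03, and *Wee1*, a cell cycle kinase, at 0.12. None of these genes showed a difference near the size of that for *Npas2*.

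**Figure D3:**
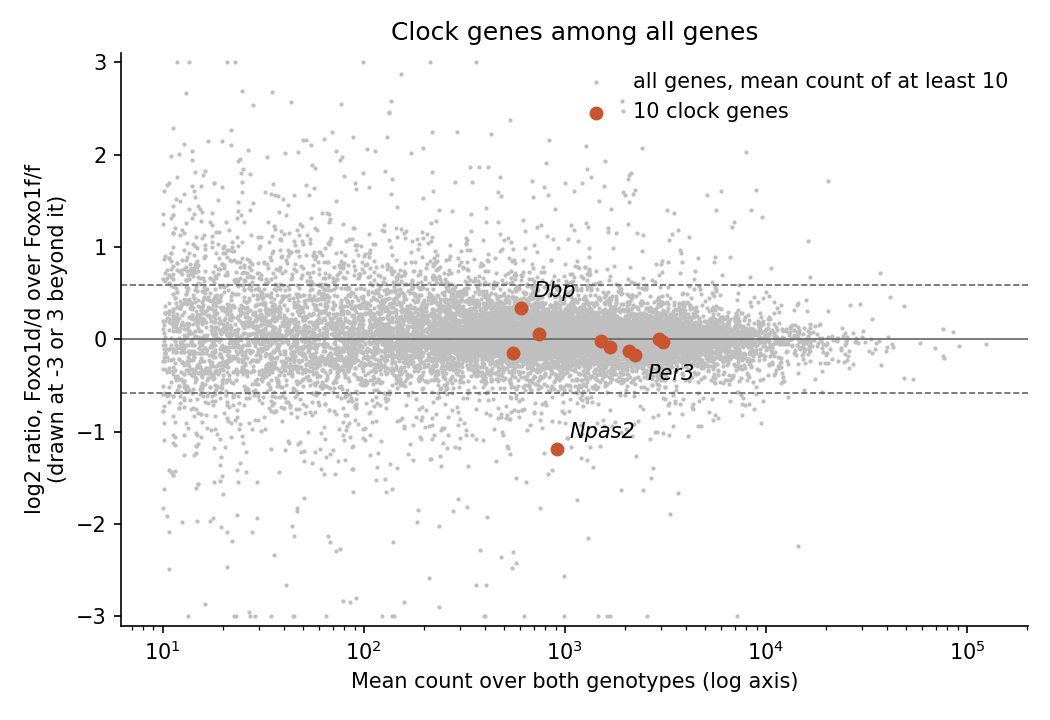
Mean count over both genotypes, on a log axis, against the log2 ratio of knockout over control for the 15696 genes averaging 10 or more counts (grey) and the 10 clock genes (orange). Dashed lines mark 1.5-fold, and genes beyond the range are drawn at its edge. *Npas2* lies at -1.18, below most genes of like count, and the other 9 lie between -0.17 and 0.34, within the bulk of the table.

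Hormones and stimuli that reach the clock through its own promoters were followed through 2 lists. Of 10 genes that respond to glucocorticoids or progestins, 3 were lower by 1.5-fold and none higher, against 3.51% and 5.43% of all genes, and the median log2 ratio was -0.27. *Pdk4*, a kinase that holds back glucose oxidation and is a known FOXO1 target, had the lowest log2 ratio, -1.55, *Tsc22d3*, which encodes GILZ, was at -0.73 and *Zbtb16*, which encodes PLZF, at -0.70. *Errfi1* was the most abundant of the list, at 306 and 250 CPM, and *Dusp1* had the highest ratio, 0.00. *Per1* is itself a glucocorticoid responsive gene, and its ratio was 0.01. Of 10 immediate early genes 1 was higher by 1.5-fold, *Fosb*, with a log2 ratio of 0.94, and none lower, against 5.43% and 3.51% of all genes, with a median of 0.19. At the closer bounds, 4 of these 10 were above 125% of control and none below 80%, while of the hormone responsive genes none was above and 4 were below, against 12.5% and 9.00% of all genes. *Dusp1* is in both lists. *Jun* was the most abundant of them, at 118 and 97.0 CPM, and had the lowest ratio, -0.29. In pregnant females of these genotypes, the paper reports no significant difference in serum progesterone before implantation. The part of hormones or of handling in the ratio of *Npas2* was not tested.

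The libraries were of whole uterus, so a difference can come from the share of a cell type as well as from the level in its cells, and fewer cells of a type and less RNA per cell cannot be told apart. Counts of markers past 1.5-fold stand beside the same background, 5.43% of all genes higher and 3.51% lower, and counts by sign beside 8649 genes above 0 and 7047 below. Smooth muscle markers were lower in *Foxo1d/d* in 8 of 8, none by 1.5-fold, and their summed level was 7224 CPM in control and 5829 in knockout uteri, a log2 ratio of -0.31. *Myh11*, the most abundant, was also lowest at -0.43, and *Acta2* highest at -0.15. Endothelial markers were likewise lower in 8 of 8, summed to 1901 and 1633, with *Pecam1* the most abundant, *Vwf* lowest at -0.41 and *Eng* highest at -0.05. None of the endothelial markers passed 1.5-fold.

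Stromal markers were below 0 in 5 of 8, none past 1.5-fold. Their sums were 14214 and 14207 CPM, mostly from the collagen genes *Col1a1*, *Col1a2* and *Col3a1*, with *Col3a1* the most abundant, *Pdgfra* lowest at -0.26 and *Lum* highest at 0.37. Epithelial markers were above 0 in 7 of 8 and higher by 1.5-fold in 1, *Krt19*, at 1.22. They summed to 737 CPM in control and 884 in knockout uteri, *Cdh1* was the most abundant and *Krt18* the lowest at -0.03. Leukocyte markers were above 0 in 8 of 8 and higher by 1.5-fold in 1, with sums of 512 and 626, *Lyz2* the most abundant, *Cd3e* the highest at 1.09 and *Csf1r* the lowest at 0.16. The part of these cell types in the ratios of the members was not tested.

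Markers of other cells that could come with a dissected uterus were also followed. All 8 adipocyte markers were higher by 1.5-fold, against 5.43% of all genes, from 1.70 for *Lep* to 2.19 for *Cidec*, and their sum was 28.3 CPM in control and 113 in knockout uteri. *Car3* was the most abundant. Of 6 red cell genes 5 had a row, and the 2 with a mean count of 10 or more were higher by 1.5-fold, with sums of 47.2 and 108, a log2 ratio of 1.16 for the β-globin row *Beta-s*, the most abundant, and 1.39 for *Alas2*. *Hba-a1*, *Hba-a2* and *Hbb-b1* were listed at 0 in both genotypes. Skeletal muscle markers summed to 110 and 108, with *Acta1* the most abundant, *Ckm* the lowest at -0.67 and the only one past 1.5-fold, *Mylpf* the highest at 0.11 and *Myh4* at 0, and 4 of the 6 averaged 10 or more counts. Ovary and oviduct markers summed to 145 and 157. Among the 4 of 6 that averaged 10 or more counts, *Ovgp1* was the most abundant and the highest at 0.17 and *Amh* the lowest at -0.35, while the oocyte gene *Zp3* had a summed count of 1 in each genotype. The part of these tissues in the ratios of *Npas2* and *Dbp* was not tested.

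Scaling the members by a cell type in place of the total, an alternative chosen after seeing the data, moves all 10 by one amount that the marker sums fix, so it is no check on any single member. Divided by the summed smooth muscle markers, the log2 ratio of *Npas2* was -0.88 and that of *Dbp* 0.65, so that *Dbp* then passed 1.5-fold. Divided by the summed epithelial markers, *Npas2* was at -1.45 and *Dbp* at 0.08. *Arntl*, *Clock* and the repressors lay above 0 in the first case and below 0 in the second.

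**Figure D4:**
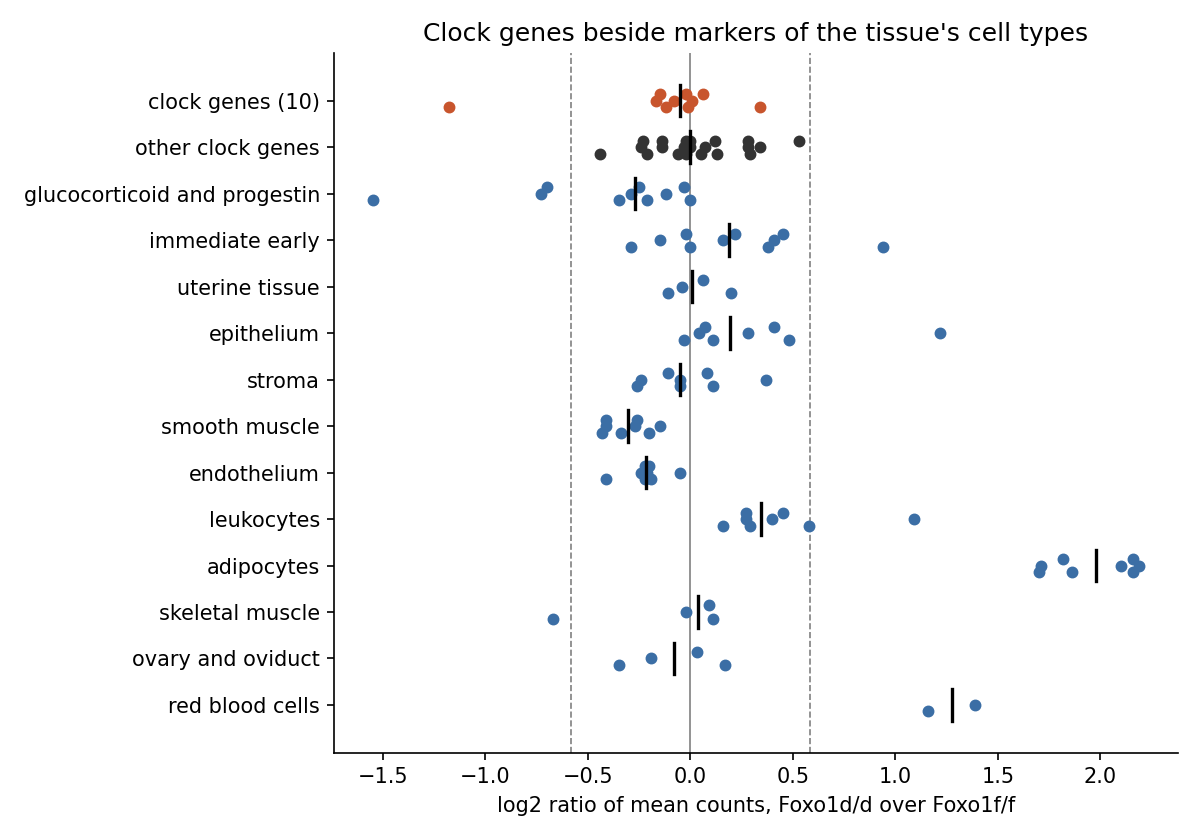
Knockout over control uteri, as log2 ratios of the single genes averaging 10 or more counts, by list. Points are genes, black bars the median of each list, and dashed lines 1.5-fold. The 10 clock genes have a median of -0.05 with *Npas2* at -1.18, the adipocyte markers lie between 1.70 and 2.19, and the smooth muscle markers between -0.43 and -0.15.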

How the data were processed

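RNA-seq libraries were made by the authors from poly(A) RNA of pooled uteri, 3 per genotype. Per the paper's methods the authors trimmed the reads, mapped them with STAR to mm10 with RefSeq genes, removed duplicates with Picard, and counted reads per gene with HTSeq, whereas the submitters' processing notes name mm9. Which build was used was not settled, and the deposited table holds no coordinates. Those printed here are from GENCODE M21 or RefSeq for GRCm38. Tool versions and the use of strand are not given in the sources used here. The deposited mean raw count of each genotype was used. Every one of the 23420 mean counts gave a whole number within 0.001 when multiplied by 3, and the summed counts were 78375043 and 81773890. The authors' own fold changes, p-values, FDR and average log2 CPM are also in the table and were not used.

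Mean counts plus 1 were divided by the genotype's total, and log2 ratios were taken. The 15696 genes averaging 10 or more counts formed the background, and a ratio past 1.5-fold was counted. Wilson intervals were computed with scipy 1.17.1 in Python 3.11.15, and the ratio was tested on simulated data. Exon lengths were the merged exons of each gene, since the lengths at hand from RefSeq are those of whole genes. Named were all members, all genes of the lists of other clock genes but 2 that are not reported here and were left out of the counts, *Foxo1*, *Pgr*, and of each other list the most abundant gene and the highest and lowest ratio; overlapping neighbours were also named, and the remaining genes were chosen after their values were seen. Members and lists were chosen with earlier results of these data known. The alternatives were other scalings, pseudocounts, folds and count minimums.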

Additional observations from a re-analysis of the deposited data

How the results depend on the processing

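The log2 ratio of *Npas2* ranged from -1.21 to -1.17 and that of *Dbp* from 0.32 to 0.34 over centring on the median gene, upper quartile scaling, the total without the 10 most counted genes, and pseudocounts of 0.1 and 10. All 50 values of single members under these 5 settings stayed within the counting interval of the main value, and the median of the members lay between -0.08 and -0.05. The sign changed for *Per1*, down to -0.02, and for no other member under these 5. Each scaling among them shifts all members by one amount, and the pseudocounts barely move counts of this size. The 50 values are therefore not 50 separate checks. Scaling by the smooth muscle or the epithelial markers, both chosen after seeing the data, shifts all members by one amount fixed by the marker sums, and all 20 values lay outside that interval, with 1 member higher by more than 1.5-fold under the smooth muscle scaling. Drawn at 125% and 80% of control, 1 member was higher and 1 lower, and of the other clock genes 2 were higher and 1 lower. Of all genes, 1968 were higher and 1412 lower at those bounds, 313 and 220 at 2-fold, 1588 and 1135 past 1.5-fold with no filter on low counts, and 410 and 277 with a mean count of at least 100. These counts follow from the threshold or from the number of genes kept. No paired analysis was possible because the table holds genotype means and no values of single libraries, and for the same reason leaving out each library in turn was not run. With 1 value per genotype, the values used here cannot show whether a single deviating pool set a ratio. The counting intervals do not include that. To follow up its RNA-seq, the paper names qRT-PCR on independent samples for *Foxo1* and *Pgr* among the genes given here. In ovariectomized females given estrogen and progesterone, it reports lower *Foxo1* by qRT-PCR and no effect on *Pgr* or *Esr1*.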

Other observations

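*Npas2* belongs to the bHLH-PAS family, transcription factors that sense oxygen, foreign compounds or time and bind DNA in pairs. The family was chosen after the values were seen, and no test was made of it. Of its 16 listed genes 14 averaged 10 or more counts, and 3 of these, *Npas2* among them, were lower in *Foxo1d/d* by more than 1.5-fold and none higher. Without its 4 clock genes, *Npas2*, *Clock*, *Arntl* and *Arntl2*, 2 of 10 were lower and none higher, against 3.51% and 5.43% of all genes. After *Npas2*, the lowest was *Arnt2*, a partner for other members of the family, averaging 2071 counts in control and 1272 in knockout uteri, a log2 ratio of -0.76, from -0.82 to -0.71. *Hif3a*, which encodes the hypoxia-inducible factor that in some forms restrains the others, averaged 1787 and 1151 counts, a log2 ratio of -0.70, from -0.76 to -0.63. Their close relatives did not share this. *Arnt* had a log2 ratio of 0.00, *Epas1* of 0.00 and *Hif1a* of 0.26. *Ahr*, the receptor for aryl hydrocarbons, was at 0.09. *Npas1*, *Npas3* and *Ahrr*, all with mean counts under 100, had intervals that held 0, *Npas4* was at 0.19, and *Sim1* and *Sim2* were at or near 0 counts. The median of the 14 was -0.01.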
